A study of Mus musculus with 34 samples.

Results

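The normal kidney transcriptome was described from the 12 untreated non-transgenic (UNT) mice of the series, out of 34 libraries in all. The 12 were chosen by their label alone, a C57BL6 background strain with a wildtype genotype and no treatment, and all kidneys were collected at postnatal day (P) 28. The study used them as the strain-matched baseline for Pkd2-KO mice, a model of polycystic kidney disease dosed with PBS or with the anti-miR-17 oligonucleotide RGLS4326. Those diseased kidneys were left out here, and no comparison between treatment groups was made. Each kidney was flash frozen as whole tissue, RNA was purified on RNeasy columns, and polyA RNA was made into TruSeq Stranded libraries. The labels number the mice from 1 to 12 and give neither sex nor litter, so each library is named by that number and counted as 1 mouse.

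The mouse kidney filters blood in glomeruli, which hold podocytes, mesangial cells and a fenestrated endothelium, and then returns most of the filtrate through the nephron. The proximal tubule takes up phosphate, glucose, amino acids, organic anions and filtered protein, and also makes glucose. The thick ascending limb and the distal convoluted tubule reabsorb salt, and the connecting tubule and collecting duct adjust calcium, water, potassium and acid. Proximal tubule cells make up most of the cortex, and several of their genes are under hormonal control.

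Between 20823992 (kidney 12) and 54981992 (kidney 10) reads were counted in genes per kidney, so that 1 count was worth 0.0182 to 0.0480 CPM (a gene's count divided by the sum of all gene counts of that kidney and multiplied by 1e+06). Besides these, 22.8% to 25.7% of the reads of a kidney mapped to more than 1 place and entered no gene. The tables listed 23509 genes, of which 19449 had a count in at least 1 kidney. No pair of kidneys held identical values, and Spearman's rho across 13653 genes was between 0.971 and 0.995 for the 66 pairs. Kidney 10 stood somewhat apart. It was in the pair with the lowest rho (kidneys 7 and 10). Of the 13653 genes with a mean of at least 1 CPM, 31.2% had their lowest value in kidney 10 and 14.8% their highest.

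Transcription in these kidneys was broad. At a threshold of 1 CPM, 13429 to 13825 genes were detected per kidney and 12989 in all 12. At the top, 63 to 76 genes per kidney exceeded 1000 CPM, 49 of them in every kidney, and 1506 genes exceeded 100 CPM in every kidney. The 10 genes with the highest counts took 15.2% ± 0.96 (SD, n = 12) of all gene counts, with the lowest share in kidney 9 (13.6%) and the highest in kidney 10 (16.8%). The top 100 genes took 27.9% ± 1.18 and the top 1000 took 55.0% ± 1.29. The counts of a kidney reached 50% of the total with 622 to 837 genes, and 90% with 5589 to 6170 genes.

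**Figure D1:**
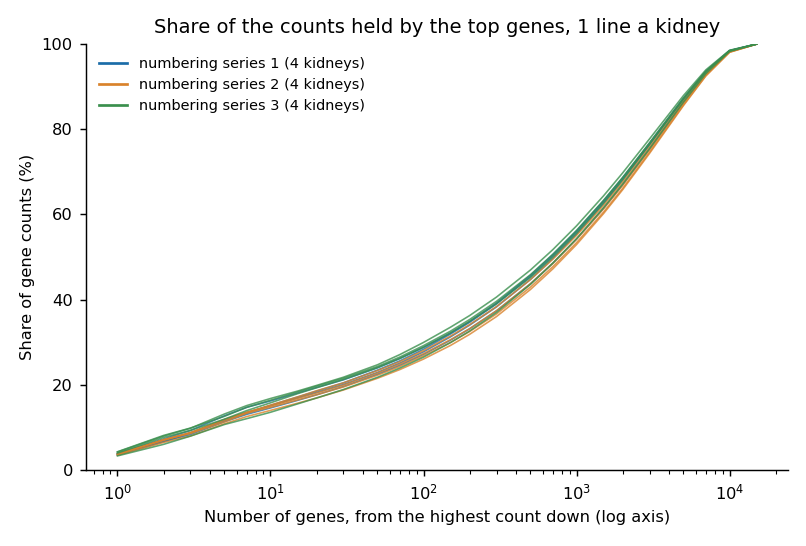
The share of all gene counts of a kidney (vertical axis, %) held by its top genes (horizontal axis, number of genes on a log scale), with 1 line per kidney coloured by numbering series (a block of 4 library numbers). The 12 lines lie close together: at 1000 genes they lie between 52.9% (kidney 8) and 57.3% (kidney 10).

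Part of this dominance came from entries without a gene name. The tables held 10 identifiers in the UCSC transcript style, which they did not pair with a symbol, and these took 10.5% ± 0.93 of the counts. They filled 5 of the first 7 places, led by uc009vey.1 with 37978 ± 2940 CPM and uc009vfc.1 with 33091 ± 3286 CPM, and uc009vey.1 was first in all 12 kidneys. The 37 symbols of the mitochondrial genome in the annotation were not among the symbols of the tables. Mitochondrial RNA could thus not be found by symbol, and whether the 10 identifiers hold it was not determined. Without the 10 identifiers, the 10 leading genes took 7.47% ± 0.44 of the remaining counts.

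Among the named genes, the secreted antioxidant enzyme Gpx3 and the androgen-regulated kidney protein Kap had by far the most counts. Gpx3 had 14312 CPM in kidney 7, a median of 16916 and 17507 CPM in kidney 5 (mean 16524 ± 1070, SD, n = 12). Kap ranged more widely, from 11533 CPM in kidney 12 through a median of 15358 to 20328 CPM in kidney 1 (mean 15986 ± 3044). Kap was highest in kidneys 1, 4 and 9 (19342 CPM or more) and lowest in kidneys 7, 11 and 12 (12848 CPM or less). All 20 leading genes stayed within the first 30 places in every kidney.

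Counts grow with transcript length, so levels of different genes were compared on a length-scaled level (counts per kilobase of merged exons, scaled to the same total as CPM over the genes with a length, in ppm). On this scale Kap was first, with 81081 ± 12880 ppm, since its exons cover only 707 bases. Gpx3 followed with 32874 ± 2441 ppm. S100g, a small calcium-binding protein of the connecting tubule, rose from place 90 by counts to place 4 by level (6393 ± 1348 ppm), with exons of 480 bases. Klk1, Umod, Eef1a1, Pck1, Ftl1, Igfbp7, Napsa, Miox, Atp1b1 and Spp1, at 6190 to 3713 ppm, were also within the first 15. Of the first 15 genes, 9 were also among the first 20 by counts, and 7 share exon sequence with another annotated gene. Whether the counting used strand is not given in the sources used here, so reads of such overlapping genes cannot be told apart.

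The promoters of these genes are shown because their counts lead the transcriptome. Each window runs from 250 bases before to 50 bases after the start of transcription in RefSeq (build GRCm38.p6) and is written in the direction of transcription. A search on both strands looked for the TATA box TATAAA, the hexamer AGAACA recognised by the androgen and glucocorticoid receptors and the core TTAATNATT of the site of HNF1, a factor of tubule cells, and capitals mark the matches (the 3 motifs do not overlap in these windows). Kap lies on chromosome 6 (gene body 133849851 to 133853762, minus strand), Gpx3 on chromosome 11 (54902453 to 54910377, plus strand), Umod on chromosome 7 (119462711 to 119479282, minus strand) and Slc34a1 on chromosome 13 (55398187 to 55415592, plus strand), all in GRCm38.
Kap, chr6:133853618-133853917, minus strand: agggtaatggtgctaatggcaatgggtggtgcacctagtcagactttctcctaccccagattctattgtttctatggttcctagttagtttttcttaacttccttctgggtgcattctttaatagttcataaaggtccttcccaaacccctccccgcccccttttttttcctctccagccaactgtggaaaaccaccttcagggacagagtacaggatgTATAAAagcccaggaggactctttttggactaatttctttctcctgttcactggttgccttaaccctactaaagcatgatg
Gpx3, chr11:54902604-54902903, plus strand: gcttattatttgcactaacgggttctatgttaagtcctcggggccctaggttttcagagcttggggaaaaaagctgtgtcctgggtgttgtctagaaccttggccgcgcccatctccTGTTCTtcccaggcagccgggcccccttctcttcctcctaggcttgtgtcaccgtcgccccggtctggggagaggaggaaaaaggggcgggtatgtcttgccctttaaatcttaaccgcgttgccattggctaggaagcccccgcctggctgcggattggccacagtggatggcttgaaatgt
Umod, chr7:119479213-119479512, minus strand: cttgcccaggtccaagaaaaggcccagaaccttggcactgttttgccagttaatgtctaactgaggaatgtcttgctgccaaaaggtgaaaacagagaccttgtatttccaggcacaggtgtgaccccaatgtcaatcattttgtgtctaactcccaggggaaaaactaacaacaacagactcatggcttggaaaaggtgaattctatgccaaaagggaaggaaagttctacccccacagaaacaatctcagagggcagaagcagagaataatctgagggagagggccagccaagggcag
Slc34a1, chr13:55399398-55399697, plus strand: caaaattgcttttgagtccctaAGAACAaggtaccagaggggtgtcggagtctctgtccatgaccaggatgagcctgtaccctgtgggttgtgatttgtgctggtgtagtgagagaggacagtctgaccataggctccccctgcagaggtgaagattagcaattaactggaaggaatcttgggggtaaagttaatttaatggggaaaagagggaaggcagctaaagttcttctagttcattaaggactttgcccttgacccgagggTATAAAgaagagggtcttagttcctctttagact

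Kap held a TATA box at positions -31 to -26 from the start of transcription. Gpx3 held the receptor hexamer on the opposite strand at positions -133 to -128, and Slc34a1 held it at positions -228 to -223, with TATAAA inside the transcribed part at positions 17 to 22. The gene bodies given above (GENCODE annotation) begin before the windows of Gpx3 and Slc34a1, so the positions in these windows hold for the RefSeq start only. None of the 3 motifs was in the window of Umod. Over all 27025 promoters, 14.2% held TATAAA, 19.0% held AGAACA and 1.54% held TTAATNATT. Of the 100 genes with the highest level, 74 had a window, and 21.6%, 14.9% and 6.76% of these held the respective motifs.

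Other leading genes carry out the transport and energy supply of the tubule. Atp1b1, a subunit of the sodium pump that drives reabsorption, had 3260 ± 147 CPM. Atp5b and Atp5a1 of the mitochondrial ATP synthase had 3112 ± 71.0 and 2390 ± 50.5 CPM and were among the steadiest genes of all. Pck1, the enzyme that commits to glucose synthesis, had 4531 ± 1270 CPM, with 2545 CPM in kidney 8, 2588 CPM in kidney 7 and 6514 CPM in kidney 3. Kidneys 7 and 8 thus lay well below the other 10 for Pck1, of which the lowest was kidney 5 at 3387 CPM. Slc27a2, which activates long fatty acids for oxidation, had 3080 ± 308 CPM, and Napsa, a lysosomal protease, had 2884 ± 456 CPM. The translation factor Eef1a1 had 3642 ± 211 CPM.

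**Figure D2:**
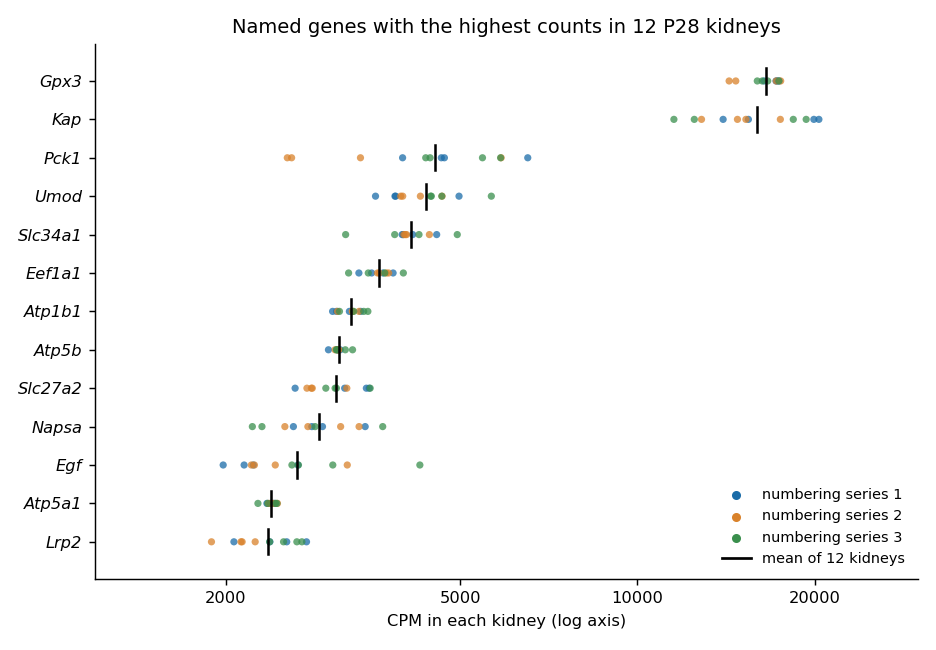
CPM in each of the 12 kidneys (horizontal log axis) for 13 named genes among the 20 with the highest mean, with 1 point per kidney coloured by numbering series and a black bar at the mean. Gpx3 and Kap lie apart from the rest, Atp5a1 and Atp5b show the narrowest spread, and Kap, Pck1 and Egf the widest.

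By class, the 387 solute carrier (Slc) genes took 3.78% (kidney 2) to 4.32% (kidney 11) of the counts, led by Slc34a1, Slc27a2 and Slc12a1. The 97 nuclear genes of the respiratory chain and ATP synthase (Nduf, Cox, Uqcr, Atp5) took 2.36% ± 0.14, and the 97 genes of cytosolic ribosomal proteins (Rpl and Rps) took 1.75% ± 0.19. Cytochrome P450 (Cyp) genes took 0.496% ± 0.077, collagens 0.385% ± 0.064, and the proton pump subunits (Atp6v) 0.323% ± 0.0080.

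Along the nephron, all lists of segment markers were expressed, and the proximal tubule, thick ascending limb and connecting tubule lists had the highest levels. In whole tissue, fewer cells of a type and less RNA per cell cannot be told apart. The median marker of the proximal tubule list stood at 509.6 ppm, that of the connecting tubule at 515.1 ppm and that of the thick ascending limb at 346.8 ppm, against a median of 20.5 ppm over the 13549 genes with a length and at least 1 CPM. All 10 proximal tubule markers, all 8 of the thick ascending limb and all 5 of the connecting tubule had a mean above 1 CPM.

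In the proximal tubule, Slc34a1, the main phosphate transporter of the brush border, had 3187 ± 390 ppm (3196 CPM in kidney 10, median 4047 and 4945 CPM in kidney 11). The glucose transporter Slc5a2 followed with 668 ± 74.8 ppm and the organic anion transporter Slc22a8 with 617 ± 78.6 ppm. Kidney 11 had the highest value of 5 of the 10 markers, including both of these sodium-coupled carriers for phosphate and glucose. Of all 13653 genes with a mean of at least 1 CPM, 3.97% were highest in kidney 11. Lrp2, the endocytic receptor megalin, had 2361 ± 273 CPM, and its transcript is long (16701 bases of exons), so that its level was 511 ± 71.2 ppm. Summed over the list, the markers held 10028 CPM in kidney 10, a median of 10989 and 13518 CPM in kidney 11, a CV (SD over mean) of 8.65%. The markers of the straight part (S3) were lower. Slc5a10 had 295 ± 52.4 ppm, Slc5a8 183 ± 42.9 ppm and Slc7a13 106 ± 37.2 ppm, with a median of 70.1 ppm over the 6 genes.

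Of the thin limb markers, the urea transporter Slc14a2 had 86.1 ± 18.2 ppm and Bst1 16.9 ± 1.83 ppm. In the thick ascending limb Umod, which encodes uromodulin, the main protein of normal urine, had 5726 ± 934 ppm, and the salt transporter Slc12a1, the target of loop diuretics, had 1049 ± 253 ppm. The growth factor precursor Egf had 850 ± 236 ppm. These 3 of the 8 genes of the list were highest in kidney 12 (Umod 5649, Slc12a1 2468 and Egf 4272 CPM), the library with the fewest counts, where 8.33% of all genes with a mean of at least 1 CPM were highest, while Cldn10 of the same list was highest in kidney 8. Macula densa markers were near the detection threshold, with Ptgs2 at 2.48 ± 1.02 CPM, Pappa2 at 2.26 ± 1.09 CPM and Nos1 at 1.01 ± 0.38 CPM.

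In the distal nephron, the thiazide-sensitive transporter Slc12a3 had 413 ± 72.0 ppm, its kinase regulator Wnk4 240.5 ± 26.7 ppm and parvalbumin (Pvalb) 71.4 ± 13.4 ppm. The connecting tubule genes S100g and Klk1 (tissue kallikrein) reached 6393 ± 1348 and 6190 ± 818 ppm, and Calb1, the larger vitamin D dependent calcium-binding protein, reached 515 ± 72.3 ppm. In principal cells, the water channel Aqp2 had 558 ± 165 ppm, with 129 CPM in kidney 10, a median of 215 and 346 CPM in kidney 7. Kidneys 7 and 9 were above 340 CPM for Aqp2, and all other kidneys were below 260 CPM. Hsd11b2, which protects the mineralocorticoid receptor from cortisol-type steroids, had 386 ppm (197 ± 25.2 CPM) and Aqp3 173 ± 26.2 ppm. Intercalated cell markers were lower and steadier. The proton pump subunit Atp6v1g3 had 122 ± 10.5 ppm, Aqp6 99.2 ± 10.7 ppm and the anion exchanger Slc26a4 (pendrin) 85.6 ± 6.95 ppm, and the CV of the summed list was 9.77%, against 17.1% for principal cells.

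**Figure D3:**
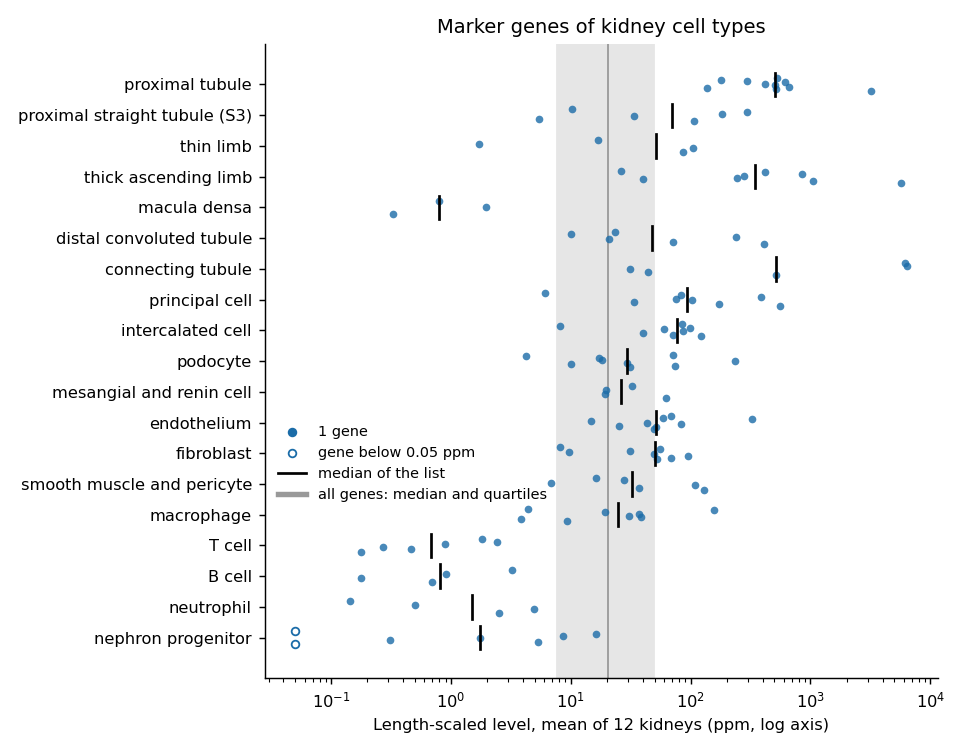
Length-scaled level (mean of 12 kidneys, ppm, log axis) of each marker gene, with 1 point per gene, a black bar at the median of its list and the median and quartiles of all genes in grey. Proximal tubule, thick ascending limb and connecting tubule genes lie highest, and lymphocyte, neutrophil, macula densa and nephron progenitor genes lie below the median of all genes (20.5 ppm).

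Glomerular genes stood below the tubular lists with the highest levels. Podxl, the surface sialomucin of podocytes that endothelium also carries, had 236 ± 28.4 ppm and Cdkn1c 70.8 ± 8.02 ppm, and all 9 podocyte markers exceeded 1 CPM. The summed podocyte list held 576 CPM in kidney 10, a median of 680 and 782 CPM in kidney 7. Renin (Ren1) had 61.9 ± 13.3 ppm, from 18.9 CPM in kidney 10 to 40.4 CPM in kidney 8, and Akr1b7, which renin cells share, had 32.5 ± 9.36 ppm. Gata3, a mesangial marker that collecting duct cells also carry, had 19.6 ± 2.27 ppm.

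The median marker stood at 51.3 ppm for endothelium, 50.7 ppm for fibroblasts, 32.5 ppm for smooth muscle and pericytes, 29.3 ppm for podocytes and 26.1 ppm for mesangial and renin cells. Among endothelial genes, Plvap, which spans the diaphragms of fenestrae, had 323 ± 51.9 ppm, Emcn 83.7 ± 7.34 ppm and Egfl7 68.9 ± 14.3 ppm. In fibroblasts, the collagen genes Col3a1 and Col1a2 had 94.8 ± 38.4 and 68.3 ± 21.7 ppm and Pdgfrb 55.5 ± 12.1 ppm. The fibroblast genes differed in how much they varied between kidneys. Col3a1 ranged from 145 CPM in kidney 9 through a median of 210 to 500 CPM in kidney 8, and the summed fibroblast list had a CV of 31.6%, against 9.87% for endothelium. The 4 kidneys above 300 CPM for Col3a1 were kidneys 2, 5, 7 and 8, and Pdgfra, another fibroblast marker, varied little (86.1 ± 6.93 CPM). The smooth muscle genes Acta2 and Tagln had 130 ± 26.0 and 108 ± 19.5 ppm.

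Macrophage genes were detected throughout, with the class II chain Cd74 at 157 ± 53.5 ppm, Csf1r at 38.6 ± 7.09 ppm and the complement gene C1qb at 37.0 ± 9.41 ppm. Kidney 9 had the highest value of 7 of the 8 macrophage genes and kidney 10 the lowest of 6. Cd74 was 155 CPM in kidney 9 and between 48.9 and 84.8 CPM in the other 11. Over all genes with at least 1 CPM, 13.3% had their highest value in kidney 9 and 31.2% their lowest in kidney 10. Lymphocyte and neutrophil genes were scarce. Cd8a had 2.47 ± 0.77 CPM, Lck 1.48 ± 0.44 CPM and Cd79b 1.28 ± 0.38 CPM, and the neutrophil genes Retnlg and Ngp averaged 0.0849 and 0.0497 CPM, highest in kidney 9 (0.339 and 0.158 CPM).

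Adrenal, pancreas and skeletal muscle genes were mostly near 0, and only 1 of these 12 genes had a mean of at least 1 CPM (Star of the adrenal list). Six2 and Fgf8, genes of nephron progenitors, had a count in 3 of 12 kidneys each and averaged 0.00619 and 0.0161 CPM, whereas Lhx1 (18.1 ± 3.54 CPM) and Wnt4 (10.0 ± 2.38 CPM) of the same list were measurable. The adrenal enzymes Cyp11b1 and Cyp11b2 had no count in any kidney, which allows up to 0.00614 CPM over the 12 libraries together (3 counts, counting error only), and Cyp21a1 and Hsd3b6 averaged 0.0617 and 0.0145 CPM. Pancreatic Cela3b had no count, Cpa1 and Pnlip averaged 0.0104 and 0.00165 CPM, and the muscle genes Ckm and Myh4 averaged 0.0409 and 0.00466 CPM. Among globins, Hba-a1 had a count in 1 kidney, Hbb-bs averaged 0.0370 CPM and Hbb-bt had no count, but these genes have near-identical copies, so that reads could be lost as not unique. Alas2, the haem enzyme of red blood cells, was measurable at 18.3 ± 10.6 CPM, from 5.90 in kidney 1 to 42.7 CPM in kidney 8. Among injury genes, Havcr1 (kidney injury molecule, named here after its value was seen) averaged 0.270 ± 0.072 CPM and Lcn2 3.10 ± 0.86 CPM, whereas Spp1 (1700 ± 303 CPM) and Clu (306.5 ± 54.4 CPM) were abundant.

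Adipose genes were uneven. Ucp1, the uncoupling protein of brown fat, had 34.3 to 87.9 CPM in 9 kidneys and 5.26, 7.01 and 8.64 CPM in kidneys 3, 9 and 12. Adipoq, a fat cell hormone, was also lowest in those 3 kidneys (2.65, 7.71 and 3.60 CPM) and highest in kidney 6 (28.5 CPM). Fat around the organ was not recorded in the labels, and its part in these values was not tested.

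The spread between kidneys was moderate for most genes. Over the 13653 genes with a mean of at least 1 CPM, the median CV was 13.2% (quartiles 9.57% and 18.9%), while counting error alone would give a median of 3.04%. The biological CV from the edgeR dispersions had a median of 13.5%. The CV fell with abundance, from a median of 20.7% among 3631 genes at 1 to 10 CPM to 11.7% among 8069 genes at 10 to 100 CPM and 10.5% among 1889 genes at 100 to 1000 CPM. The CV was under 10% for 28.2% of the genes, and 189 genes had a CV above 50%, 29 of them above 100%. With kidney 10 left out, the median CV was 11.7%.

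The steadiest genes differed by a few percent between the 12 mice. Among 4212 genes with at least 50 CPM, Smim14 had the lowest CV (1.71%), from 55.6 to 59.1 CPM. Eif3c, a translation factor, had a CV of 2.11%, Atp5a1 2.11%, the lipid transfer protein Pitpnb 2.15%, Atp5b 2.28%, Srpr of the signal recognition particle receptor 2.55% and Idh3b of the citric acid cycle 2.56%. Vps41, Mapkap1 and Snx19 completed the first 10, at up to 2.82%.

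**Figure D4:**
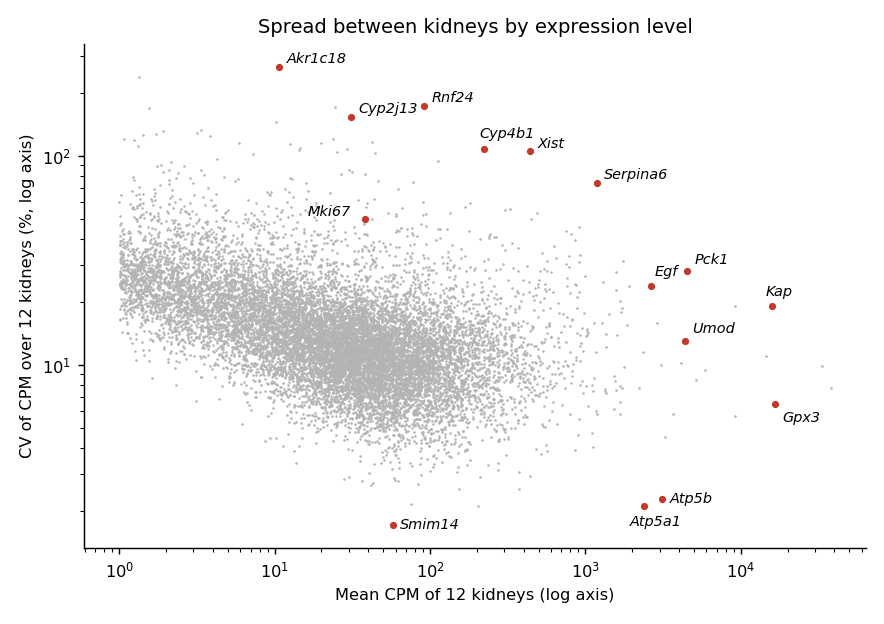
CV of the CPM over 12 kidneys (vertical log axis, %) against the mean CPM (horizontal log axis) for genes with a mean of at least 1 CPM, with named genes in red. The median CV is 13.2%. Among the genes named in the figure, Atp5a1, Atp5b and Smim14 lie lowest, and Akr1c18, Rnf24, Cyp2j13, Cyp4b1 and Xist lie above 100%.

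At the other end, the 20 genes with the largest CV among 11418 genes with at least 5 CPM included hydroxysteroid dehydrogenases, P450 and glucuronosyltransferase genes and genes of the sex chromosomes. Akr1c18, a hydroxysteroid dehydrogenase that inactivates progesterone, had 98.2 CPM in kidney 3, 25.3 in kidney 9, 2.07 in kidney 6 and 1.39 in kidney 12, and at most 0.357 CPM in the other 8 (CV 266%). Akr1c14, from the same enzyme family, was also highest in kidneys 3 (152.7 CPM) and 9 (39.8 CPM). Rnf24, a membrane RING finger protein, had 539.7 and 277.9 CPM in these 2 kidneys and 13.4 to 51.0 CPM in the others. The organic anion transporter Slc22a7 was highest in the same pair (88.1 and 32.2 CPM), against 3.93 to 22.4 CPM elsewhere. Bcat1, which transaminates branched-chain amino acids, had 151, 84.8, 81.8 and 87.2 CPM in kidneys 3, 6, 9 and 12 and at most 32.3 CPM in the rest. Serpina6, the carrier of corticosteroids in blood, was singled out after its values were seen: it averaged 1188 CPM, with 23.4 CPM in kidney 3 and 2750 CPM in kidney 2.

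The kidneys fell into an upper and a lower set for some genes. A gap of at least 1 on the log2(CPM + 0.5) scale with at least 3 kidneys on either side was present in 28 of the 13653 genes, in 19 different arrangements of kidneys. The genes of the Y chromosome, Ddx3y, Uty, Kdm5d and Eif2s3y, were above the gap in kidneys 1, 4, 5, 8, 10 and 11. Ddx3y had 47.4 to 70.5 CPM there and at most 0.0226 CPM in the others. Xist, the RNA that silences an X chromosome, showed the reverse arrangement, with 772 to 1008 CPM in kidneys 2, 3, 6, 7, 9 and 12 and 0.167 to 3.96 CPM in the rest, the latter value in kidney 5. Each numbering series held 2 kidneys of each kind. By these genes, kidneys 1, 4, 5, 8, 10 and 11 came from males and kidneys 2, 3, 6, 7, 9 and 12 from females. The CVs above are thus over kidneys of both sexes.

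Only Cyp2j13 among the other genes with a gap had the arrangement of the Y-linked genes, with 7.95 to 144 CPM against 0.111 to 0.736 CPM. Its values in kidneys 5 and 8 (8.41 and 7.95 CPM) were well below those in kidneys 1, 4, 10 and 11 (53.6 to 144 CPM). The P450 gene Cyp4b1 separated those same 4 kidneys from all others, with 738, 471, 456 and 438 CPM in kidneys 1, 4, 10 and 11 and 22.8 to 106 CPM in the other 8. Ugt8a, which makes galactosylceramide, had the same arrangement (61.4 to 78.2 CPM against 17.4 to 29.5 CPM). Kidneys 5 and 8, which also had Y-linked counts, are in numbering series 2, and kidneys 1, 4, 10 and 11 are in series 1 and 3. The part of the series in this split was not tested. Ugt2b38, a glucuronosyltransferase, was at most 0.0192 CPM in kidneys 3, 6 and 12 and between 8.82 and 141 CPM in the other 9, highest in kidney 1. Ugt2b37, likewise on chromosome 5, also had its highest value in kidney 1 (47.4 CPM). Inmt, a methyltransferase, and Slc22a30 were highest in kidney 1 as well (395 and 90.1 CPM).

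The promoter of Cyp4b1 is shown because, apart from Xist, it was the only gene with a gap whose mean exceeded 100 CPM (221 ± 238 CPM). The gene lies on chromosome 4 (115624725 to 115647723, minus strand, GRCm38), and capitals mark the receptor hexamer, read on the opposite strand at positions -248 to -243.
Cyp4b1, chr4:115647672-115647971, minus strand: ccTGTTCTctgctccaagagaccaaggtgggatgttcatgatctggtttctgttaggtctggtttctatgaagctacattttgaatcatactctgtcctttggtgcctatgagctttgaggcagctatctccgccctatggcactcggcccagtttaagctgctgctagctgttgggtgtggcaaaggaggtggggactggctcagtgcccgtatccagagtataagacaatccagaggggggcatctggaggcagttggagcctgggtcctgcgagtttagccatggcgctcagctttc

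Other genes known to respond to sex hormones in kidney had no gap of that size. Kap, first by level, ran continuously from 11533 to 20328 CPM, and its 3 highest kidneys (1, 4 and 9) included kidneys with and without counts of Ddx3y above the gap. Cyp4a14, a fatty acid hydroxylase, was between 363 CPM (kidney 5) and 1034 CPM (kidney 6), and was above 800 CPM in kidneys 3, 6, 9 and 12. Cyp2e1 was at 500 to 567 CPM in kidneys 1, 4, 10 and 11 and at 140 to 268 CPM in the others. The labels give no sex, and neither its part nor that of the numbering series in these values was tested.

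**Figure D5:**
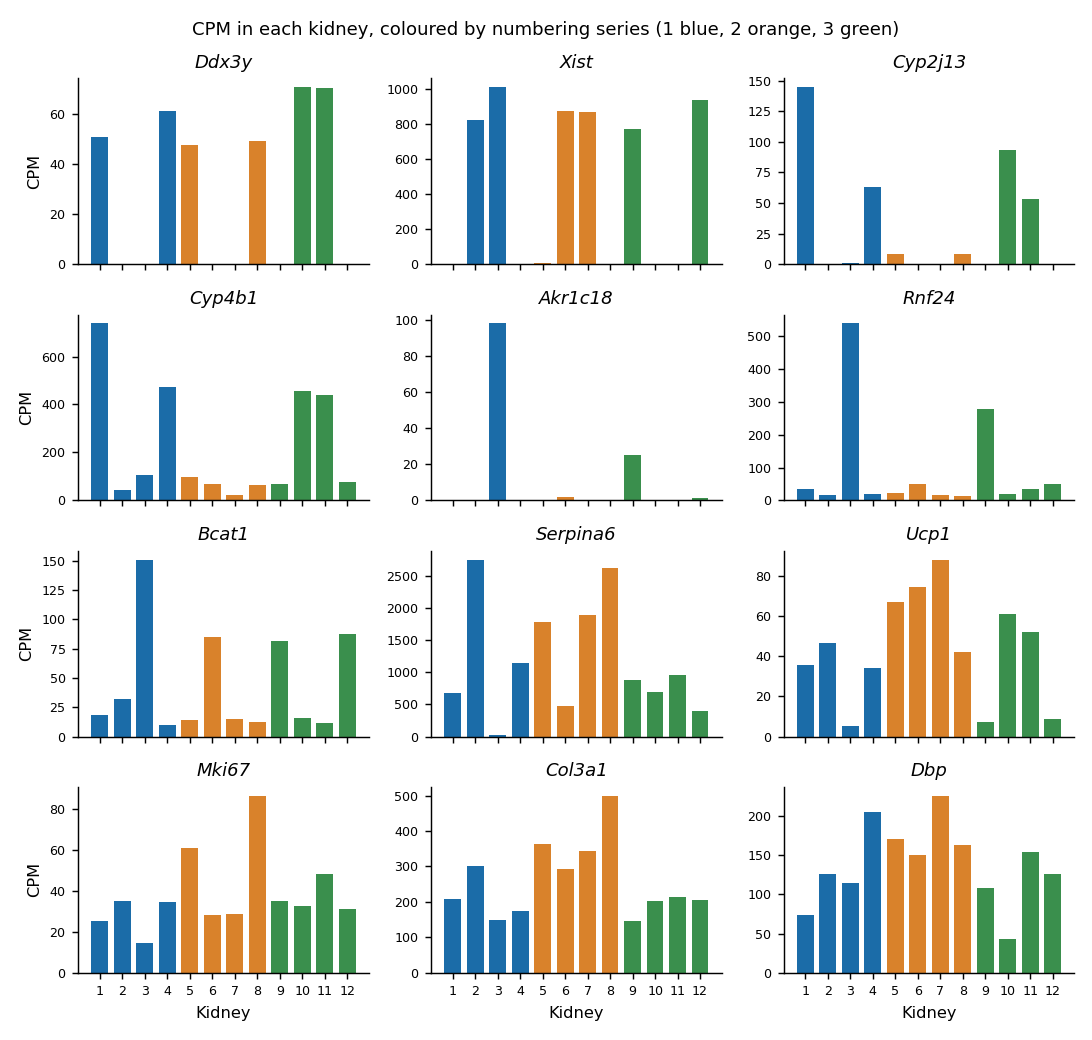
CPM (vertical axes, from 0, a separate scale for each gene) in kidneys 1 to 12 for 12 genes, with bars coloured by numbering series. Ddx3y and Xist divide the kidneys in opposite ways, Cyp4b1 is high in kidneys 1, 4, 10 and 11, Akr1c18 and Rnf24 are highest in kidneys 3 and 9, and Mki67 and Col3a1 are highest in kidney 8.

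Genes of cell division shared their extremes. All 7 proliferation genes had their lowest value in kidney 3 and their highest in kidney 8, whereas 7.48% of all genes were lowest in kidney 3 and 16.1% highest in kidney 8. Mki67 was 14.3 CPM in kidney 3, had a median of 33.5 and reached 86.3 CPM in kidney 8, and kidney 5 was next at 60.7 CPM. Top2a ran from 7.61 to 43.4 CPM and Cdk1 from 3.97 to 22.4 CPM between the same kidneys. The summed list had a CV of 46.1%. Kidney 8 was also the highest for 5 of the 8 fibroblast genes.

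Genes tied to the hour of collection and to feeding also varied. Among the clock outputs, Dbp was 42.6 CPM in kidney 10, had a median of 139 and reached 226 CPM in kidney 7, whereas Tef (543 ± 34.4 CPM) and Nr1d2 (219 ± 28.5 CPM) varied less. Kidney 10 was the lowest for 5 of the 14 clock genes with at least 1 CPM, close to the 31.2% of all genes that were lowest there. The hour of death is not in the labels, and its part was not tested. Txnip, which responds to glucose, had 867 ± 209 CPM and Cpt1a, which admits fatty acids to mitochondria, 468.5 ± 95.2 CPM. Interferon genes were low to moderate, with Ifit3 at 37.6 ± 7.05 CPM, Rsad2 at 51.6 ± 8.48 CPM and Isg15 at 5.45 ± 1.57 CPM, and 7 of the 8 with at least 1 CPM were lowest in kidney 11, where 10.8% of all genes were lowest. Of the heat shock genes, Hspa8 had 1290 ± 322 CPM, Hsp90aa1 284 ± 81.9 CPM and Hsph1 194 ± 56.6 CPM. Jun, Dusp1 and Zfp36, early response genes, had 44.4 ± 13.1, 83.1 ± 25.7 and 63.9 ± 12.8 CPM.

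In the deposited tables the library numbers 11 to 14 occur 3 times each among the 12 kidneys, which places kidneys 1 to 4, 5 to 8 and 9 to 12 in 3 numbering series, and what a series stands for is not given. Between series, edgeR's quasi-likelihood F test with Benjamini-Hochberg adjustment called 1 of 15507 genes (0.00645%), with 1787 genes at an unadjusted p under 0.05. The gene was Col5a3, a minor fibrillar collagen chain, with a mean of 4.40 CPM in series 1, 9.38 CPM in series 2 and 3.71 CPM in series 3 (largest log2 difference between series 1.23, adjusted p = 0.0134). The call was lost when kidney 5, 6, 7, 8 or 10 was left out, and without kidney 9 the count was 517. The likelihood ratio test of DESeq2 called 85 genes, Col5a3 among them. Next in order of p in edgeR were C3, Cmtm3, Gpihbp1, Wfdc1, Gpr133, Ifltd1 and Pdgfrl, with edgeR adjusted p between 0.226 and 0.243 and largest log2 differences of 0.62 to 1.70. None of these passed with all 12 kidneys in edgeR, whereas all 7 passed without kidney 9 (edgeR adjusted p 0.0229 to 0.0309). DESeq2 called 6 of them (adjusted p 4.07e-06 to 0.00242) and gave no adjusted p for Ifltd1. Over the 13653 genes with a mean of at least 1 CPM, the median share of variance of log2(CPM + 1) between series was 24.9%. Without any series effect, 18.2% would be expected.

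Whether kidneys rich in proximal tubule transcripts were poor in others was asked by correlating the proximal tubule score (mean log2(CPM + 1) of its list) with 8 other scores over the 12 kidneys. No relation passed the adjustment over the 8. The closest was that with principal cells (Pearson's r = -0.55, permutation p = 0.0643, adjusted p = 0.515; Spearman's rho = -0.40, permutation p = 0.200, adjusted p = 0.801). Without kidneys 11 and 12, which lay farthest from the median of the proximal tubule score, r was -0.05, so the relation rested on those kidneys at this scaling. With TMM-scaled CPM, r was -0.72 (permutation, adjusted p = 0.0674), and -0.42 without the same kidneys. For macrophages r was -0.45 (permutation p = 0.146, adjusted p = 0.585; rho = -0.44, permutation p = 0.154, adjusted p = 0.801), and the other 6 values of r lay between -0.25 and 0.04. Without kidneys 11 and 12, r with the thick ascending limb moved from 0.04 to -0.54, r with macrophages was -0.36 and the other 5 values lay between -0.15 and 0.09.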

How the data were processed

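Kidney RNA of 12 untreated C57BL6 mice was examined, and the other 22 libraries were not used here. Per the labels and the methods of the study, paired-end reads were trimmed with Trim Galore, mapped to GRCm38 (mm10) with STAR and assigned to genes with HTSeq 0.6.1, and the authors deposited raw counts per gene. The annotation and the strand setting are not given in the sources used here. Each kidney is 1 library, and p-values measure only the spread between these libraries.

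CPM was computed over the gene rows, leaving out the rows of unassigned reads (no feature 9.84% to 11.3%, not unique 22.8% to 25.7% and ambiguous 0.358% to 0.488% of reads). Lengths were merged exons of GENCODE M21, matched for 98.3% of the symbols (89.3% of the counts), 1002 of them through older names. The 3 numbering series were compared with edgeR 4.0.16 (quasi-likelihood F test, TMM factors, filterByExpr, adjusted p under 0.05) and with DESeq2 1.42.0. The scripts were tested on simulated data with known changes. Correlations used 100000 permutations, two-sided. Markers, gene lists and rules were chosen with earlier results of these data known. Named were the 20 genes with the highest mean CPM and 15 with the highest level, the 3 highest members of each list and members under 0.1 CPM, the 20 most variable genes (mean of at least 5 CPM), the 10 least variable (at least 50 CPM), the 15 largest gaps (mean of at least 5 CPM) and the 8 smallest p of the series test. Ugt8a, Ces1f, Gbp2b and Ifi202b, which also had a gap, were named after their values were seen. Some genes that this rule takes are not reported here. Intervals and limits cover counting error only. Python 3.11.15, pandas 2.3.3, scipy 1.17.1 and R 4.3.3 were used.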

Additional observations from a re-analysis of the deposited data

How the results depend on the processing

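The share of the 10 leading genes was 15.2%. It was 12.4% without the gene with the highest count and 7.47% without the 10 UCSC identifiers (an alternative chosen after seeing the data). Of the 15 genes with the highest level, 8 were in the first 15 when genes overlapping another gene were left out, and 14 with the longest transcript as length. The 28 genes with a gap became 88 at a gap of 1.5-fold and 17 at 3-fold. The correlation of the proximal tubule score with the thick ascending limb score (r = 0.04) was 0.36 with TMM scaling. It turned to -0.033 with scores centred on their series and turned to -0.23 with genes divided by their SD. That with endothelium turned from -0.15 to 0.16 and that with fibroblasts from -0.21 to 0.14 when centred on series. None of these passed a test (adjusted p 0.472 to 0.978, permutation). For principal cells r was -0.72 with TMM scaling (permutation, adjusted p = 0.0674), and without the 2 kidneys farthest at each scaling it was -0.05 at the main scaling, -0.42 with TMM, 0.15 with scores centred on series and -0.72 with genes divided by their SD. The series test called 1 gene with no filter, with size factors and with plain library sizes, 85 genes by DESeq2 and 0 to 517 genes when 1 kidney was left out, with 0 calls without kidneys 5, 6, 7, 8 and 10 (1029 to 1771 genes at an unadjusted p under 0.05) and 517 without kidney 9. The cause was not tested. Leaving out each kidney in turn (chosen after seeing the data) gave 15.1% to 15.4% for the 10 leading genes, 12991 to 13057 genes at 1 CPM in all kidneys, a median CV of 11.7% to 13.5% and 22 to 38 genes with a gap. Of the alternative values of the main results, 12 moved and 4 turned. The other 89 stayed near the main value or, for correlations, kept their sign and their side of the threshold. No paired analysis was possible because only 1 group was examined.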

Other observations

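Uroplakin genes, which mark the urothelium of the renal pelvis, were present in all kidneys, with Upk3a at 32.1 ± 6.93 ppm, Upk1a at 22.0 ± 3.19 ppm and Upk1b at 19.8 ± 3.21 ppm. Genes best known from liver were uneven in abundance. Ttr, the thyroid hormone carrier, had 31.5 CPM in kidney 9, a median of 74.4 and 143 CPM in kidney 8. Alb averaged 7.61 CPM and was highest in kidney 10 (20.8 CPM), and Apoa1 averaged 0.807 CPM.

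Several further genes of high spread had arrangements of their own. Ceacam2 reached 26.7 CPM in kidney 3 and was between 1.90 and 7.85 CPM in the other 11. Serpina1d, a protease inhibitor, reached 106 CPM in kidney 3 and was between 4.46 and 26.1 CPM elsewhere. Ifi44l, an interferon-inducible gene, was at most 0.669 CPM in kidneys 1, 3, 5, 10 and 11 and between 7.86 and 21.1 CPM in the other 7. Among other interferon-inducible genes, Gbp2b was at most 0.139 CPM in kidneys 1, 2, 5 and 11 and between 3.96 and 14.5 CPM in the other 8, and Ifi202b was between 1.18 and 3.87 CPM in kidneys 3, 6, 8, 9, 11 and 12 and had no count in the other 6. Both belong to families of similar genes, so their counts are uncertain. None of the 9 genes of the interferon list had a gap. Zbtb16, a transcriptional repressor, was between 58.9 and 89.6 CPM in kidneys 1, 3, 6, 10 and 12 and at most 25.9 CPM in the rest. Ces1f, a carboxylesterase, was between 69.7 and 208 CPM in 7 kidneys and at most 33.8 CPM in kidneys 2, 6, 7, 8 and 12. Thrsp, a lipogenic gene, followed the arrangement of Ucp1, with 32.6 to 68.7 CPM in 9 kidneys and 10.1 to 13.6 CPM in kidneys 3, 9 and 12. Cml5 was highest in kidneys 1 (48.9 CPM) and 10 (32.5 CPM) and lowest in kidney 7 (0.847 CPM).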
